A study of Homo sapiens with 6 samples.

Results

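The cytosolic and endosomal sensors of foreign nucleic acid were followed over the 6 arrays of the series. The group was chosen by name and comprised 10 genes of 19775 on the array: IFIH1, RIGI (formerly DDX58), DHX58, TLR3, CGAS, STING1, IFI16, ZBP1, MAVS and AIM2. The array annotation assigned 25 probe sets to these symbols alone. KHOS and U-2OS are established human osteosarcoma cell lines, KHOS being a line transformed by a sarcoma virus. For each line there was 1 array of control cells, 1 of cells transfected for 48 hours with the empty vector pEP-miR-Null, and 1 of cells transfected with pEP-miR-1, which expresses the muscle microRNA miR-1. Transfection used Lipofectamine LTX with Plus Reagent, and each array read total RNA pooled from 3 flasks, so no array had a replicate of its own line and treatment. No vector is named for the control cells, and the sources used here do not say whether they received transfection reagent. Values of a line are listed in the order control, miR-null, miR-1 unless stated.

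In this system RIGI and IFIH1 (MDA5) are RNA helicases that recognise viral RNA in the cytosol. Both signal through MAVS, an adaptor on the mitochondrial surface, while DHX58 (LGP2) is a related helicase that lacks the signalling domains and tunes the other two. TLR3 reads double-stranded RNA in endosomes. CGAS reads cytosolic DNA and makes a cyclic dinucleotide that activates STING1, and IFI16, AIM2 and ZBP1 are further receptors for nucleic acid. The routes from RIGI, IFIH1, TLR3 and CGAS lead to type I interferon. Several of the sensors are themselves interferon-induced genes in many cell types.

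The microRNA delivered by the miR-1 vector is shown because it was the agent under study. The mature strand, with its seed (bases 2 to 8) in capitals, was taken from RefSeq (GRCh38.p14, MIR1-1, chr20:62554351-62554372, plus strand).
hsa-miR-1-3p: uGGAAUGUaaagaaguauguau
The sensors were read first with either vector against the control cells and then between the vectors.

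The promoters of 6 of the 10 genes were in the RefSeq table (IFIH1, RIGI, TLR3, IFI16, MAVS and AIM2), as windows of 300 bases around a transcription start, 2 for IFI16 and 1 for each of the others. A gene counted when any of its windows held a match. They were searched on both strands for the core of the interferon-stimulated response element, which is GAAA, any 2 bases and GAAA again, and for the STAT-binding GAS core, which is TTC, any 3 bases and GAA. The response element core was found in 3 of the 6 (IFIH1, TLR3 and AIM2), against 4.38% of 27305 genes. The GAS core was found in 1 of the 6, TLR3, against 9.38%. Windows are printed for IFIH1 and RIGI, the sensors called in both lines, and for TLR3 and AIM2, which held a match. Capitals mark the matches to the response element core or its reverse complement, and all windows are read 5′ to 3′ along the gene (GRCh38.p14).
IFIH1, chr2:162318635-162318934, minus strand: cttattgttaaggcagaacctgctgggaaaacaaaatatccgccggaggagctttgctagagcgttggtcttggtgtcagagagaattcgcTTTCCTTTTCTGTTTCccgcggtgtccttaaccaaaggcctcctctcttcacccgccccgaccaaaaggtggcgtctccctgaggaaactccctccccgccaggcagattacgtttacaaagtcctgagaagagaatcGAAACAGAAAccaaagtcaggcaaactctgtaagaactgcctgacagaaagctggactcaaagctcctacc
RIGI, chr9:32526147-32526446, minus strand: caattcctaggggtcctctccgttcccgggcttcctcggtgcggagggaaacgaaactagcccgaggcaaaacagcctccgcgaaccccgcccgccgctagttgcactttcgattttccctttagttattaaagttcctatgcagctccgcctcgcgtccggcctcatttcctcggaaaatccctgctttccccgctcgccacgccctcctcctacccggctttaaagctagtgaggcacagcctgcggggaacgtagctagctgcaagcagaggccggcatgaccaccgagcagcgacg
TLR3, chr4:186068906-186069205, plus strand: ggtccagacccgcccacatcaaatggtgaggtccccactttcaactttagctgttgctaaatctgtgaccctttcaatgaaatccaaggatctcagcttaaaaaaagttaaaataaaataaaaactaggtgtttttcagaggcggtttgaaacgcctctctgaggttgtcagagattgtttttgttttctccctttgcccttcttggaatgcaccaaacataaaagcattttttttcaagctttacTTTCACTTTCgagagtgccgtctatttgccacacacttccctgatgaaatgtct
AIM2, chr1:159076717-159077016, minus strand: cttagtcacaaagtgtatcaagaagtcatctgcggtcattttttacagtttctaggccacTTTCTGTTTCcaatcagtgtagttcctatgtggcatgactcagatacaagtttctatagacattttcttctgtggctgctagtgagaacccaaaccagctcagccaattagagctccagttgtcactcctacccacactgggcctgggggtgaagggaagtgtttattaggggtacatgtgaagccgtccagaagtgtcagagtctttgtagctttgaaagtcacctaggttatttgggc
IFIH1 held 3 matches, of which a pair overlapped, and TLR3 and AIM2 held 1 each. A match is a description of the letters in a window, and its absence from the printed RIGI window says only that these letters were not there.

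Values are RMA expression values on the log2 scale, where 1 unit is a 2-fold difference. A gene was tested when the mean of its highest probe set over the 6 arrays reached 5.11, the median over the probe sets. This left 12958 genes, 7 of them sensors, while TLR3, ZBP1 and AIM2 stayed below the limit. Of the 25 sensor probe sets 15 lay at or above it. Array medians ran from 4.98 to 5.15 and interquartile ranges from 2.75 to 3.36, narrowest on the U-2OS vector arrays. The average of the hybridization spike-ins, added to each sample before hybridization, was 9.76, 10.13 and 9.93 for KHOS and 10.81, 11.33 and 11.65 for U-2OS. Probe sets for 28S ribosomal RNA averaged 10.39, 10.75 and 10.96 for KHOS against 10.70, 11.47 and 11.68 for U-2OS. Both controls were thus higher with a vector in each line, and their part in the results was not tested. Of 8 mesenchymal and osteoblast markers 6 reached the limit in the mean over both lines, with VIM, an intermediate filament protein, at 13.15 to 14.30. RUNX2, the osteoblast transcription factor, was read at 8.98, 9.85 and 9.83 in KHOS and at 6.74, 4.72 and 4.23 in U-2OS, below the limit on both U-2OS vector arrays. COL1A2 and ALPL, a collagen chain and the bone alkaline phosphatase, did not reach it. Of 7 measured blood markers CD3E and ITGAM lay just above it, and PTPRC, the pan-leukocyte marker, lay at 3.53 to 3.75. Of 4 endothelial markers only PECAM1 reached the limit, at 5.69 to 6.54. Of 5 epithelial markers only EPCAM did, at 8.43 to 8.70 in KHOS and 5.49 to 5.96 in U-2OS. The summed level of the mesenchymal and osteoblast markers was 71.28 to 72.61 for KHOS and 67.41 to 74.17 for U-2OS, that of the blood markers 30.96 to 31.38 for KHOS and 31.34 to 33.04 for U-2OS, that of the epithelial markers 26.06 to 26.37 and 23.63 to 24.19, and that of the endothelial markers 17.38 to 18.21 and 18.81 to 19.65. The part of these markers in the results was not tested.

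**Figure D1:**
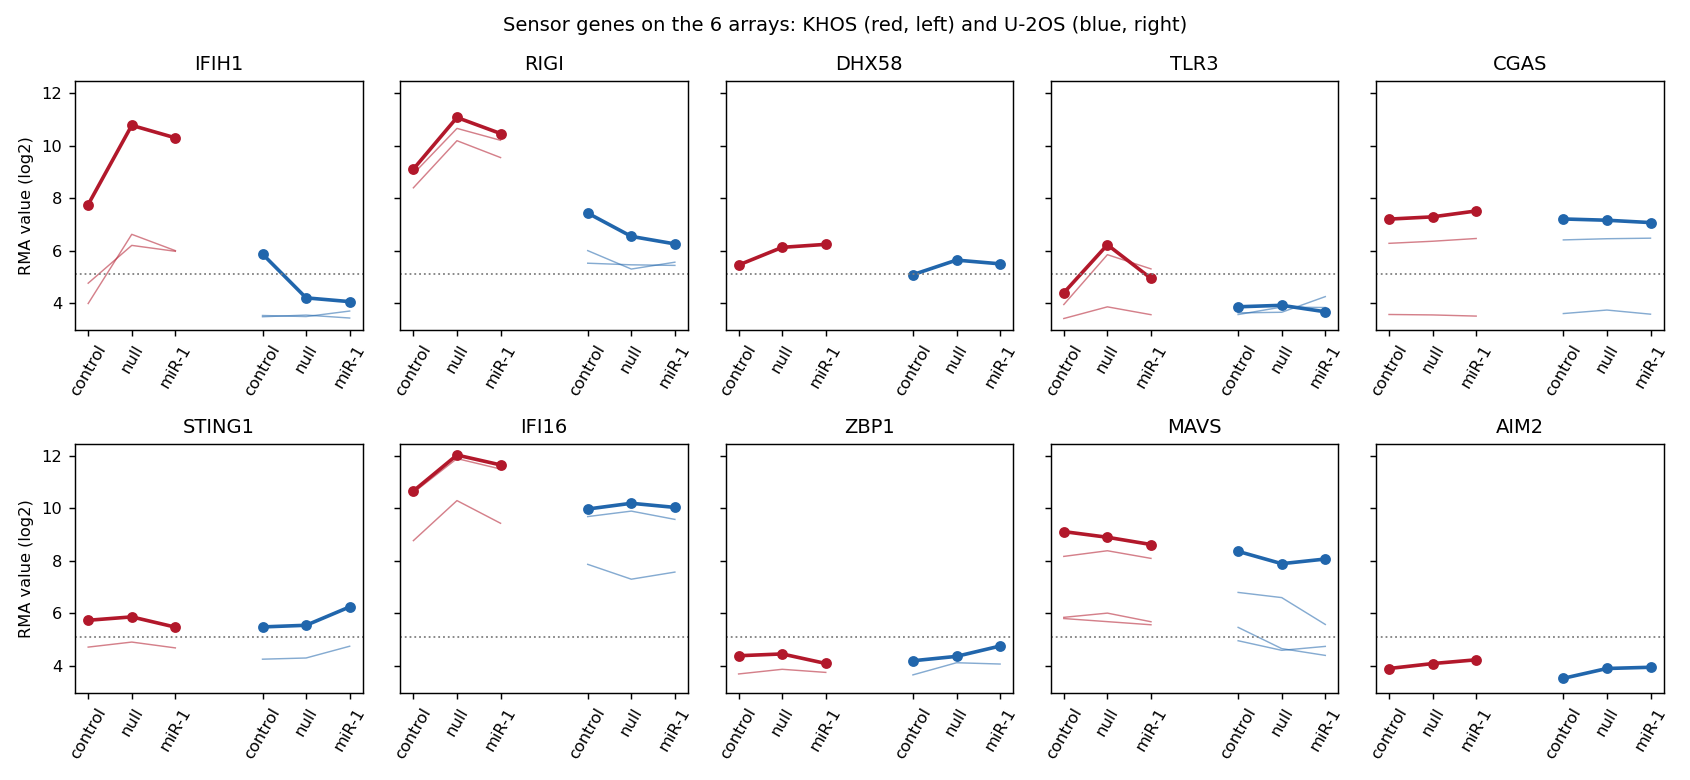
RMA values (log2, vertical axis) of the 10 sensor genes on the 3 KHOS arrays (red) and 3 U-2OS arrays (blue), in the order control, miR-null, miR-1. Thick lines with points are the probe set with the highest mean of each gene, thin lines its other probe sets, and the dotted line is the limit for testing, 5.11. IFIH1, RIGI and IFI16 climb with either vector in KHOS, while the IFIH1 and RIGI main probe sets decline in U-2OS.

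The first comparison asked what transfection with either vector went with in KHOS. The RNA helicases IFIH1 and RIGI and the DNA sensor IFI16 rose, by 6.87-fold, 3.16-fold and 2.27-fold, and no sensor fell. MAVS, STING1 and CGAS, the adaptors and the cytosolic DNA sensor, did not pass the test. Thus 3 of 7 tested sensors rose, where 3.44% of all genes tested rose and 0.571% fell (limma, adjusted p under 0.05). The median vector change of the 7 sensors was 0.73 in KHOS, beside -0.01 for all genes tested. In bulk RNA, a change in every cell and a change in a share of the cells cannot be told apart.

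IFIH1 was read at 7.76 in KHOS control cells, 10.78 with miR-null and 10.30 with miR-1. Both vector arrays stood clear of the control, and the level went from percentile 79.1 of all probe sets on its array to percentiles 96.0 and 94.3. The fitted change was 2.78 ± 0.22 (log2, SE; limma, adjusted p = 0.00159), and 11 of 12958 genes, IFIH1 included, had an increase at least as large. The other IFIH1 probe sets lay below the limit in the mean and moved the same way in KHOS. One went from 4.76 to 6.20 and 5.98, and the other from 3.98 to 6.62 and 6.0.

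RIGI was read at 9.11 in KHOS control cells, 11.08 with miR-null and 10.46 with miR-1. All 3 of its probe sets had the miR-null array highest and the control lowest. The fitted change was 1.66 ± 0.26 (SE; limma, adjusted p = 0.0133), and the other probe sets had mean vector changes of 1.51 and 1.47. Without the KHOS miR-null array the change was 1.36 and the call was lost (adjusted p = 0.0856), and after a further quantile normalization it was 1.69 with adjusted p = 0.0648.

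IFI16, which binds DNA in nucleus and cytosol, was read at 10.67, 12.04 and 11.66 in KHOS. It had a fitted change of 1.18 ± 0.20 (SE; limma, adjusted p = 0.0195), and its other probe sets changed by 1.10 and 1.09 but did not pass when every probe set was tested (adjusted p = 0.053 and 0.142). Another probe set, with the suffix s_at, gave nearly the same profile (10.60, 11.90 and 11.50). The main probe set has the suffix x_at, which marks probes that can also bind other transcripts, and such binding was not tested. It no longer passed without the KHOS miR-null array (0.99, adjusted p = 0.136), without the KHOS miR-1 array (1.37, adjusted p = 0.0803) and after quantile normalization (1.22, adjusted p = 0.0589).

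DHX58 was read at 5.45 in KHOS control cells, 6.13 with miR-null and 6.24 with miR-1. Its fitted change of 0.73 ± 0.17 (SE) stood close to the threshold (limma, adjusted p = 0.0545). It passed with the mean of a gene's probe sets as the value (adjusted p = 0.0262) and without either of the U-2OS vector arrays (adjusted p = 0.0295 for each).

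TLR3 lay below the limit for testing. Its best probe set was read at 4.39, 6.22 and 4.94 in KHOS, and a second one at 3.95, 5.85 and 5.31. The control was lowest on both, and the mean vector changes were 1.19 and 1.63. The third probe set stayed between 3.41 and 3.86. With no filter on low values the fitted change of the best probe set was 1.19 ± 0.41 (SE), which did not pass (limma, adjusted p = 0.209).

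The DNA-sensing axis of CGAS and STING1 and the adaptor MAVS did not pass the test in KHOS. CGAS was read at 7.20, 7.29 and 7.51 in KHOS, with a fitted change of 0.20 and a 95% interval from -0.20 to 0.60. STING1 was read at 5.74, 5.87 and 5.47, with a fitted change of -0.07 and an interval from -0.73 to 0.59. MAVS was read at 9.12, 8.90 and 8.62, with a fitted change of -0.35 and an interval from -0.79 to 0.08. These intervals exclude a 2-fold rise for all 3 genes.

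ZBP1 and AIM2, a sensor of Z-form nucleic acid and an inflammasome receptor for DNA, stayed below the limit for testing on every array. The best ZBP1 probe set lay between 4.09 and 4.75 and that of AIM2 between 3.52 and 4.23. In both lines the AIM2 control array was the lowest of the line, by 0.19 to 0.42 from each vector array. Arrays of this type do not tell such low signal from background without detection calls, which the values used here do not carry.

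**Figure D2:**
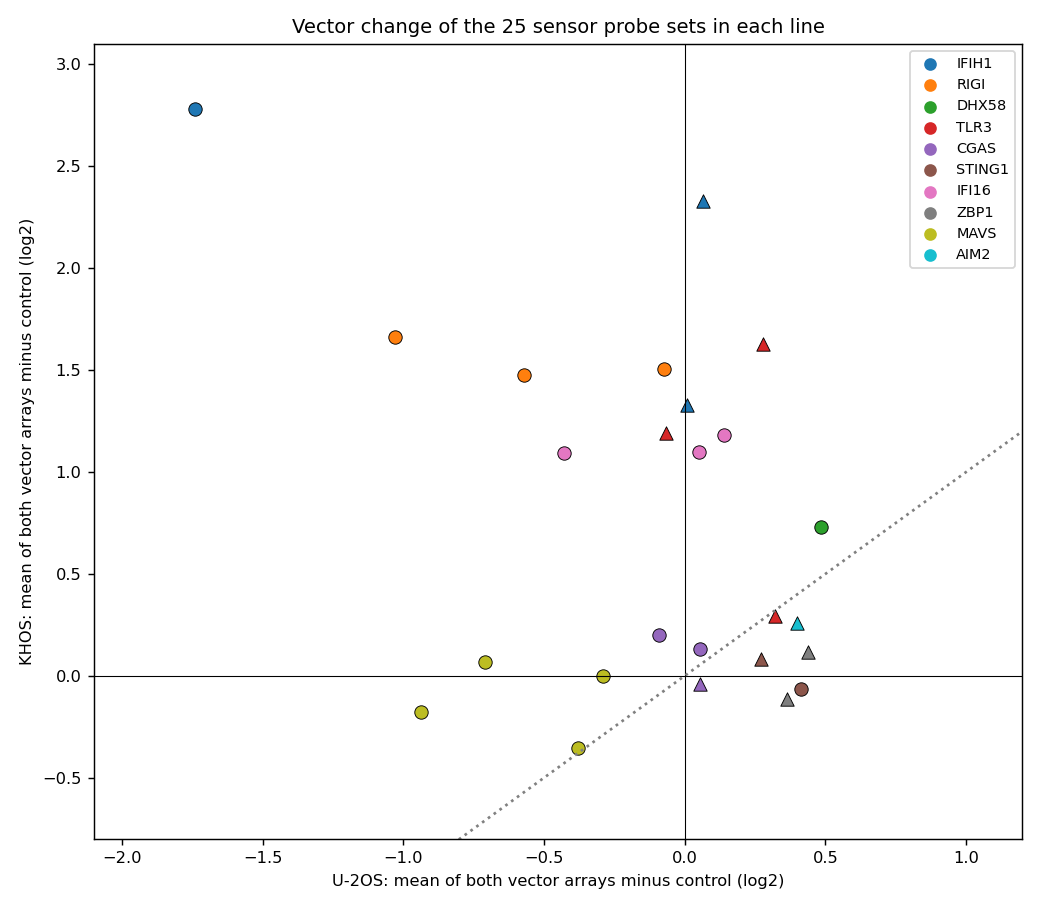
Mean of the 2 vector arrays minus the control array (log2) for each of the 25 sensor probe sets, in U-2OS (horizontal axis) and KHOS (vertical axis). Circles are probe sets at or above the limit for testing and triangles those below it, and the dotted line marks equal change. All probe sets of IFIH1, RIGI and IFI16 lie at or above 1.09 in KHOS, and none of those of IFIH1, RIGI or IFI16 exceeds 0.14 in U-2OS.

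In U-2OS the same vectors went with lower values of the helicases IFIH1 and RIGI on their main probe sets. IFIH1 fell by 1.74 on the log2 scale and RIGI by 1.03, and no sensor rose. That is 2 of 7 tested sensors lower, where 11.7% of all genes tested fell and 3.23% rose. The median vector change of the sensors was -0.09, beside -0.10 for all genes.

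The main IFIH1 probe set was read at 5.87 in U-2OS control cells, 4.20 with miR-null and 4.06 with miR-1. It went from percentile 62.5 of its array to percentiles 27.6 and 22.3, so that both vector arrays lay in the range of low signal. The fitted change was -1.74 ± 0.22 (SE; limma, adjusted p = 0.00472). The other IFIH1 probe sets were low on all U-2OS arrays, between 3.43 and 3.70, and changed by 0.01 and 0.06, so this decrease was read by 1 probe set. With the mean of the 3 probe sets as the value the change was -0.56 and did not pass (adjusted p = 0.0783).

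RIGI was read at 7.43, 6.54 and 6.26 in U-2OS, with a fitted change of -1.03 ± 0.26 (SE; limma, adjusted p = 0.034). Its probe sets disagreed here. One changed by -0.57, while the third was read at 5.52, 5.46 and 5.44 and changed by -0.07. The call was lost with the mean of the probe sets (-0.56, adjusted p = 0.112), after quantile normalization (-0.94, adjusted p = 0.0945), without the U-2OS miR-1 array (-0.89, adjusted p = 0.0727) and without either KHOS vector array (adjusted p = 0.0609 for each).

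IFI16 was read at 9.98, 10.20 and 10.04 in U-2OS, with a fitted change of 0.14 and a 95% interval from -0.32 to 0.60. DHX58 was read at 5.09, 5.64 and 5.50, and its change of 0.48 ± 0.17 (SE) did not pass (limma, adjusted p = 0.0882). CGAS was read at 7.21, 7.16 and 7.07, and its change of -0.09 did not pass (adjusted p = 0.743). STING1 stood at 5.48 in control cells, 5.55 with miR-null and 6.25 with miR-1, the last being its highest value on any array. Its change of 0.41 ± 0.29 did not pass (adjusted p = 0.351), and with the U-2OS miR-null array left out it was 0.76 (adjusted p = 0.0396). MAVS was read at 8.36, 7.89 and 8.07, with a change of -0.38 (adjusted p = 0.198), while its other 3 probe sets changed by -0.71, -0.29 and -0.94. When every probe set was tested the last of these passed (adjusted p = 0.0205).

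Whether the lines differed in their vector change was tested as an interaction. IFIH1 and RIGI differed, with higher values in KHOS, which is 2 of 7 sensors where 2% of all genes tested were called in this direction and 0.286% in the other. For IFIH1 the vector change in KHOS exceeded that in U-2OS by 4.52 ± 0.31 (log2, SE; limma, adjusted p = 0.00133). Both U-2OS vector values of IFIH1 lay in the range of low signal, so this size is approximate, and with the mean of its probe sets it was 2.70 (adjusted p = 0.00267). For RIGI it exceeded it by 2.69 ± 0.37 (SE; limma, adjusted p = 0.014). Its other probe sets gave 1.58 and 2.05, and neither passed when every probe set was tested (adjusted p = 0.0608 and 0.0573). The median of the 7 sensors was 0.29, beside 0.14 for all genes.

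For IFI16 the difference was 1.04 ± 0.29 (SE) and did not pass (limma, adjusted p = 0.0913). It passed with a filter at the 75th percentile (adjusted p = 0.0499), with the variance prior following the mean (adjusted p = 0.0124) and when the U-2OS miR-null array was left out (adjusted p = 0.0439). DHX58 had a difference of 0.25 with a 95% interval from -0.30 to 0.80, CGAS 0.29 (-0.28 to 0.86), MAVS 0.03 (-0.58 to 0.64) and STING1 -0.48 (-1.42 to 0.46). The IFIH1 call held under all alternatives that could be fitted, with values from 2.70 to 4.76 and a highest adjusted p of 0.0285. The RIGI call was lost after quantile normalization (2.63, adjusted p = 0.08), without the KHOS miR-null array (2.39, adjusted p = 0.082) and without the KHOS miR-1 array (3.0, adjusted p = 0.0559). Each line had 1 control array, and these fits assume that it varied like the vector arrays of a line, whose spread also holds any effect of miR-1.

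With both lines fitted jointly, 0 of 7 sensors passed between vector and control (limma), where 0.0232% of all genes were called. At an unadjusted p under 0.05 were 2 sensors, DHX58 and IFI16, and 2006 of 12958 genes. The joint change of IFIH1 was 0.52 ± 0.91 (SE) and that of RIGI 0.32 ± 0.55. These errors hold the opposite changes in the lines. DHX58 was higher on all 4 vector arrays than on the control of its line, by 0.41 to 0.79, with a joint change of 0.61 ± 0.16 (SE; limma, adjusted p = 0.187).

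**Figure D3:**
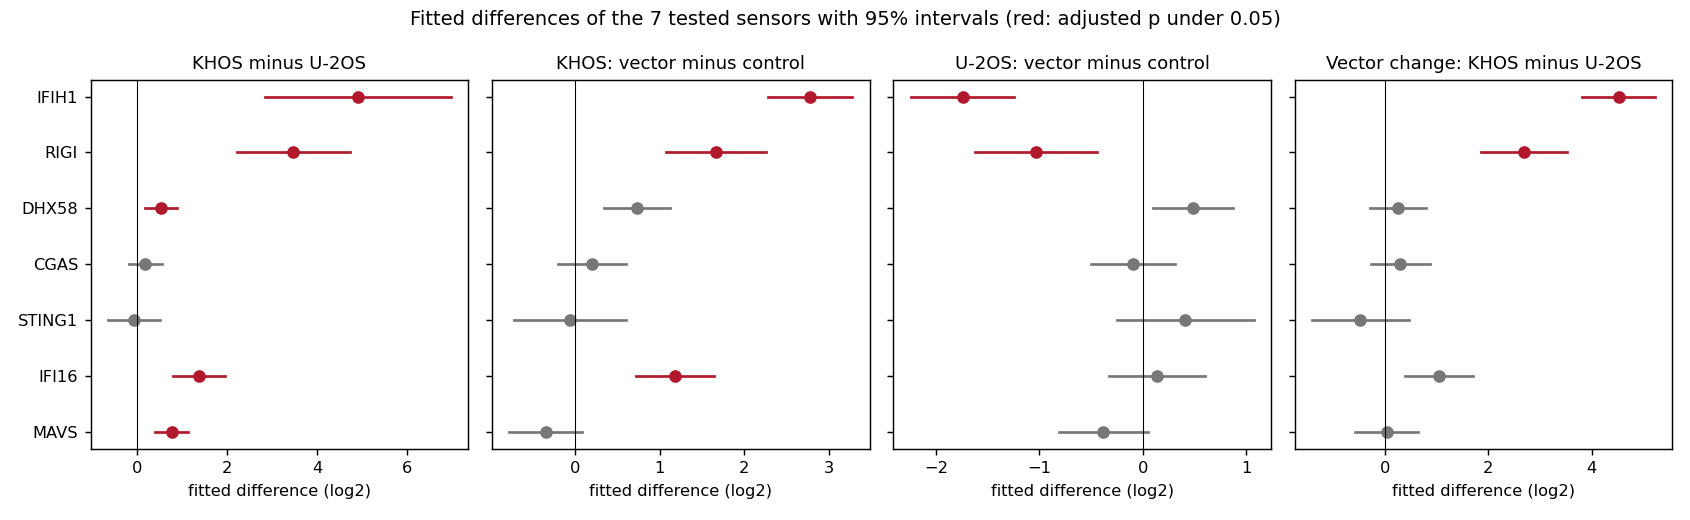
Fitted log2 differences (points) with 95% intervals (lines) of the 7 tested sensors in 4 comparisons, with red for an adjusted p under 0.05 and grey otherwise. IFIH1 and RIGI are on opposite sides of 0 for the vector change of the 2 lines, and the interval of RIGI for the difference between the lines starts at 1.86.

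The lines also differed in the level of the sensors. Over all arrays IFIH1, RIGI, IFI16, MAVS and DHX58 were higher in KHOS, 5 of 7 tested sensors, where 30.3% of all genes were called higher and 24.5% lower. All 3 KHOS arrays lay above all 3 U-2OS arrays for 4 of the 7 (IFIH1, RIGI, IFI16 and MAVS), against 32.7% of all genes. For DHX58 the groups overlapped.

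The fitted line difference was 4.90 ± 0.86 (log2, SE; limma, adjusted p = 0.00401) for IFIH1, or 3.01 with the mean of its probe sets, and 3.47 ± 0.52 (adjusted p = 0.00222) for RIGI. It was 1.38 ± 0.24 (adjusted p = 0.00389) for IFI16. These averages combine control and vector arrays. On the control arrays alone, 1 per line and so without a test, KHOS exceeded U-2OS by 1.89 for IFIH1, 1.68 for RIGI and 0.69 for IFI16. The RIGI probe sets gave 3.41 and 2.39 for the other control differences, so the gap between the control arrays depended on the probe set.

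MAVS, the common adaptor of both helicases, was 0.77 ± 0.15 (SE) higher in KHOS (limma, adjusted p = 0.00675), and its 4 probe sets each had all KHOS arrays above all U-2OS arrays. The call was lost after quantile normalization (0.42, adjusted p = 0.0684) and without either miR-null array (0.65, adjusted p = 0.0783 for each). DHX58 was 0.53 ± 0.15 higher (adjusted p = 0.0236), and its call was lost without any of the 4 vector arrays (0.43 to 0.55). CGAS and STING1 did not pass, with 0.19 (95% interval -0.18 to 0.56) and -0.07 (-0.64 to 0.51). On the control arrays CGAS was read at 7.20 in KHOS and 7.21 in U-2OS, and STING1 at 5.74 and 5.48. With no filter on low values TLR3 was 1.37 ± 0.30 higher in KHOS (adjusted p = 0.0104), while ZBP1 and AIM2 did not pass (adjusted p = 0.623 and 0.131).

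The study was made to compare the miR-1 vector with the empty one. No sensor passed in this comparison, 0 of 7 with 0 at an unadjusted p under 0.05, and no gene of 12958 did (0% called; 78 genes at an unadjusted p under 0.05 in limma). With the line by vector interaction in the fit again none passed, while 1 sensor, RIGI, and 586 genes had an unadjusted p under 0.05. In KHOS 5 of the 7 sensors were at least 1.2-fold lower with miR-1 than with miR-null, against 11.8% of all genes. These were IFIH1 (-0.48), RIGI (-0.61), IFI16 (-0.38), STING1 (-0.39) and MAVS (-0.28), while DHX58 and CGAS had 0.11 and 0.22. TLR3, which was not tested, had -1.28 and -0.54 on its better probe sets. In U-2OS 1 of 7, RIGI (-0.29), was lower by that margin, against 19.2% of all genes, and STING1 was higher (0.70). These counts rest on the main probe sets, and others disagreed. In KHOS the other probe sets had -0.23 and -0.62 for IFIH1, -0.22 for STING1 and -0.29, -0.33 and -0.12 for MAVS. Of these -0.23, -0.22 and -0.12 fell short of the margin. In U-2OS the other RIGI probe sets had -0.02 and 0.26. MAVS had 0.18 on its main probe set and -1.02, 0.15 and -0.26 on the others. The median of the 7 sensors was -0.38 in KHOS and -0.14 in U-2OS, beside -0.05 for all genes in each line.

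Each of these within-line differences sets 1 array against 1 and has no replicate check. The joint fitted difference was -0.31 for IFIH1 with a 95% interval from -2.84 to 2.22, and -0.45 for RIGI with an interval from -2.0 to 1.10. For CGAS it was 0.07 (-0.39 to 0.52) and for DHX58 -0.01 (-0.45 to 0.43). The spread behind these intervals of the helicases holds the line difference in the vector response. With the interaction in the fit the interval of IFIH1 ran from -0.66 to 0.04 and that of RIGI from -0.80 to -0.10 (limma, adjusted p = 1.0 for each).

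The genes around the sensors were read from 6 lists with 90 symbols, of which 77 were tested. In KHOS 23 of the 77 rose with a vector and 0 fell. In U-2OS 2 rose and 14 fell. The line difference in the vector change was called for 18, all higher in KHOS. Over all genes tested 3.44% rose and 0.571% fell in KHOS, and 3.23% rose and 11.7% fell in U-2OS. For the line difference 2% were called higher in KHOS and 0.286% lower. In alternatives added after the data were seen, quantile normalization left 9 that rose in KHOS, 6 that fell in U-2OS and 3 called for the line difference. Leaving out the KHOS miR-null array left 9 rises in KHOS, 3 decreases in U-2OS and 1 line difference, and leaving out the KHOS miR-1 array left 14, 3 and 1.

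Outputs of the pathway accounted for 11 of the 23 rises in KHOS. All 11 tested outputs rose in KHOS (median 2.38), 0 rose and 1 fell in U-2OS (median 0.09), and 9 were called for the line difference. With no filter on low values 11 of 12 rose in KHOS and 8 were called for the line difference. CXCL11, IFNB1, IFNL1, MX1 and RSAD2 lay below the limit for testing on every U-2OS array. They reached it in the mean only through KHOS, so the sizes of their line differences are approximate. After quantile normalization 7 of the 11 rose in KHOS and 1 was called for the line difference. IFNB1, the interferon beta gene, was read at 6.60, 9.30 and 8.66 in KHOS and at 4.01, 4.49 and 4.30 in U-2OS. It rose by 2.38 in KHOS (limma, adjusted p = 0.00277), whereas its 0.39 in U-2OS did not pass (adjusted p = 0.318), and the difference was 1.98 ± 0.36 (SE; adjusted p = 0.0365). RSAD2, the antiviral enzyme viperin, had the largest line difference of the lists, 3.79 ± 0.38 (SE), and was read at 6.56, 10.90 and 10.18 in KHOS against 4.79 to 5.05 in U-2OS.

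Among the other RNA sensors 5 of 10 rose in KHOS and 2 fell in U-2OS, and 4 were called for the line difference. IFIT1, which binds viral RNA with unusual ends, was read at 11.48, 13.46 and 12.72 in KHOS and at 6.04, 4.40 and 4.78 in U-2OS. Like IFIH1 it rose in the first line (1.61, adjusted p = 0.0243) and fell in the second (-1.45, adjusted p = 0.0183). Both U-2OS vector values of IFIT1 lay below the limit for testing, so the size of this decrease is approximate. OASL, an oligoadenylate synthetase-like protein that acts with RIGI, was read at 7.95, 11.02 and 10.88 in KHOS, a rise of 3.0 (adjusted p = 8.65e-04), and between 5.34 and 5.68 in U-2OS.

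Of 11 cofactors and regulators of the RNA sensors 4 rose in KHOS, and in U-2OS 1 rose and 4 fell. Of 20 adaptors, kinases and transcription factors 3 rose in KHOS, and in U-2OS 1 rose and 2 fell, with 0 called for the line difference. The U-2OS counts of this list were near the shares over all genes, 3.23% and 11.7%. TICAM1, the adaptor of TLR3, was read at 6.45, 7.10 and 7.13 in KHOS, and its 0.67 did not pass (adjusted p = 0.0706). In U-2OS it lay between 6.12 and 6.30. IKBKE, a kinase that can phosphorylate IRF3, was among the lowest line differences, at -0.36 (adjusted p = 0.411).

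Of 17 DNA sensor cofactors and nucleases 0 passed in KHOS in either direction and 3 fell in U-2OS, with 2 called for the line difference. Of 8 death and inflammasome partners 0 passed in KHOS, 2 fell in U-2OS and 1 was called for the line difference. The gene called lay below the limit for testing on every KHOS array, so the size of its line difference is approximate. At an unadjusted p under 0.05 in limma 7 of the 17 and 1 of the 8 had a change in KHOS, in either direction. Of all 12958 genes tested 2375 had one. The lowest line differences of the lists were those of PYCARD, the inflammasome adaptor ASC (-0.93, adjusted p = 0.23), and BANF1, a chromatin protein that shields DNA from CGAS (-0.44, adjusted p = 0.368), and neither passed. PYCARD lay below the limit for testing on every U-2OS array, so the size of its difference is approximate.

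**Figure D4:**
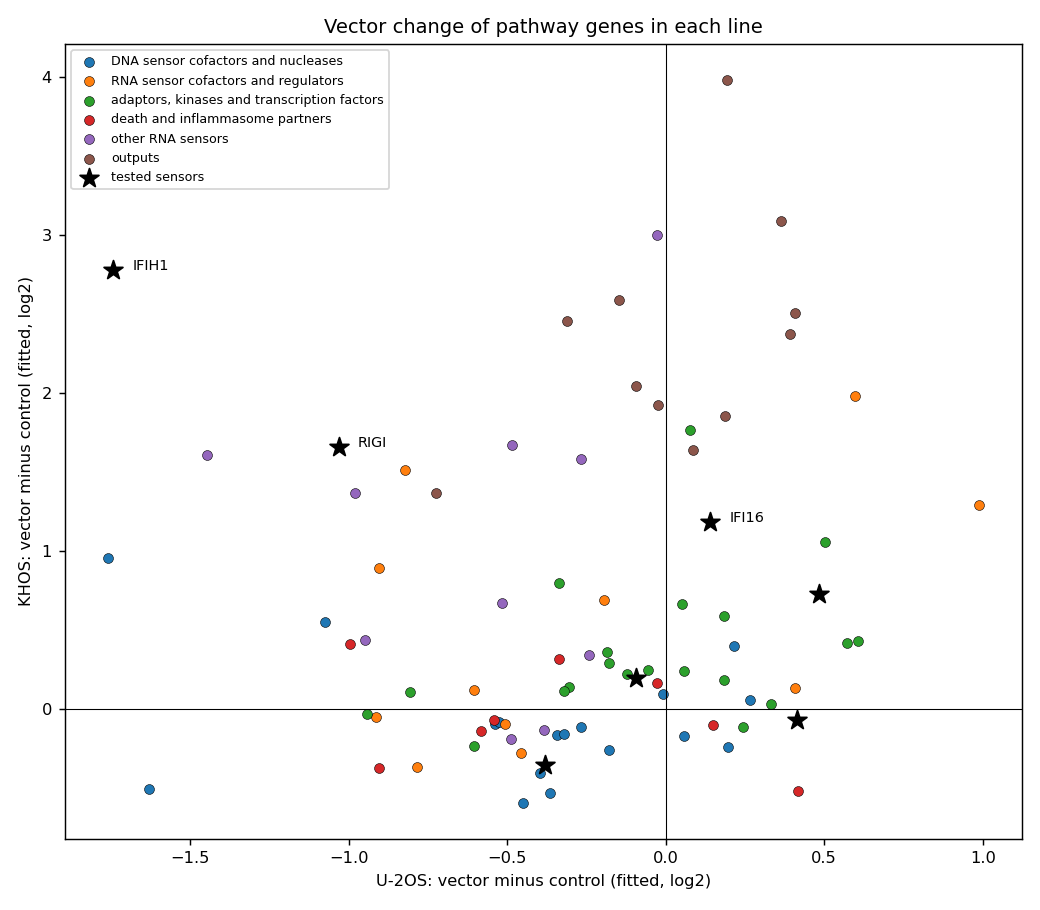
Fitted vector minus control change (log2) in U-2OS (horizontal axis) and KHOS (vertical axis) of 77 tested genes from 6 pathway lists (coloured points) and of the 7 tested sensors (stars). The outputs all lie at or above 1.37 in KHOS, and IFIH1 and RIGI lie in the upper left, higher in KHOS and lower in U-2OS.

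Over the 6 arrays the tested sensors differed in how closely they followed IFIH1. IFIH1 and RIGI had a Pearson r of 0.997, and IFI16 had 0.946 with IFIH1, while STING1 had -0.24 with IFIH1. CGAS, MAVS and DHX58 lay between, with 0.81, 0.79 and 0.73. These points are 6 arrays in 2 lines, so the values mostly follow the lines and are given as a description. Among 5954 tested genes with a range of at least 1 log2 unit, the profile closest to that of IFIH1, by the root mean square difference after centring each gene on its mean, was that of IFI27 (0.30), followed by HERC6 (0.41) and TRIM22 (0.47). IFI27 was read at 9.50, 11.97 and 11.57 in KHOS and at 7.62, 6.15 and 6.0 in U-2OS. Among the same candidates the closest to STING1 were TONSL-AS1 (0.15), SEPTIN12 (0.17) and ARSD (0.17), each highest on the U-2OS miR-1 array. STING1 itself had a range of 0.77, so genes that varied as little as STING1 were not among the candidates.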

How the data were processed

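Affymetrix U133 Plus 2.0 scans were turned by the authors into log2 expression values with RMA, run in Qlucore per the series' deposited design text. RMA is also the tool in the submitters' processing notes. The deposited log2 values were used as they were (54675 probe sets, 0 missing), and quantile normalization on top of them was an alternative. RMA compresses small differences near the floor. Genes were named from the platform annotation: 41091 probe sets had 1 symbol, 1801 several and 11721 none, and 62 control probe sets were left out. No symbol was changed by a match to RefSeq by Entrez identifier, found for 41037. Each of 19775 genes was represented by its probe set with the highest mean, and 12958 passed the median filter.

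Tests used limma 3.58.1 (lmFit, eBayes) in R 4.3.3 with Benjamini-Hochberg adjustment over all genes tested and a threshold of 0.05. Line, joint vector and miR-1 differences came from additive terms for line and treatment, and the changes within a line and their difference from an interaction of line and vector, each with 2 residual degrees of freedom. The authors' Mann-Whitney test was not used, since groups this small cannot pass it. No line and treatment had a second array, so p-values do not measure the spread between like arrays or between cultures. In the additive fits the spread is the line difference in the response to treatment. In the interaction fits it is the difference between the miR-null and miR-1 arrays of a line. limma moderates it toward the variance of all genes, with 6.38 and 8.35 total degrees of freedom in the main fits. The small number of arrays limits precision. The fit was tested on simulated data. Alternatives were the filter, the probe set per gene, the variance prior, subsets of arrays and leaving out each array. The sensors, the pathway lists and the comparisons were chosen with earlier results of these data known. All 10 sensors are named. From the lists the text names the 3 highest and 3 lowest line differences in the vector change, with IFNB1 and TICAM1, and the 3 profiles closest to IFIH1 and to STING1.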

Additional observations from a re-analysis of the deposited data

Results flagged for a closer look

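The vector change of IFIH1 was 4.52 log2 units higher in KHOS than in U-2OS, and that of RIGI 2.69, each past the threshold of the interaction test (limma, adjusted p = 0.00133 and 0.014). The IFIH1 size is approximate, since both U-2OS vector values (4.20 and 4.06) lay in the range of low signal, and the mean of its probe sets gave 2.70. On the main probe set of each gene both vector arrays lay above the control in KHOS and below it in U-2OS. The other IFIH1 probe sets changed by 0.01 and 0.06 in U-2OS, where they were low on all arrays. The RIGI call for the line difference was lost after quantile normalization and without either KHOS vector array. Spike-ins and 28S ribosomal RNA were higher on the vector arrays of both lines, and their part in these differences was not tested.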

How the results depend on the processing

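No paired analysis was possible because the labels give no replicate numbers and each line and treatment had 1 array. The cell line was a term in all joint fits. Of 71 recomputed counts of called sensors 57 stayed within 1.5 times the value reported. Some of the 71 were fixed or repeated by the design, so this tally is no measure of stability. The line comparison was the same without an array as without its counterpart in the other line. The change within a line was tested as before when the other line's control was left out. For miR-1 the count was 0 under every setting. After quantile normalization 1 sensor, IFIH1, was called for each of the vector change in KHOS, that in U-2OS and the line difference. With the mean of a gene's probe sets 0 were called in U-2OS. Leaving out 1 array gave 3 to 5 for the line comparison (3 without either miR-null array), 0 to 4 for the joint vector change (2 without the KHOS control and 4 without the U-2OS control), 1 to 4 in KHOS (1 without the KHOS miR-null array), 1 to 3 in U-2OS (1 without the U-2OS miR-1 array or either KHOS vector array), 1 to 3 for the line difference (1 without either KHOS vector array) and 0 to 0 for miR-1. Without a control array the change within its line and the line difference could not be fitted. Leaving out a vector array of a line did not alter the fitted change of the other line, only the error that it was tested with. Any other cause of these shifts was not tested.

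Over all genes quantile normalization called 130 rather than 520 in KHOS, 1020 rather than 1931 in U-2OS (47.5% higher rather than 21.6%) and 19 rather than 296 for the line difference (68.4% higher rather than 87.5%), and for the lines 42.3% rather than 55.3% were higher. It moved the median of all genes by more than 0.1 for the line comparison (-0.17 rather than -0.00199), in U-2OS (0.04 rather than -0.10) and for the line difference (-0.05 rather than 0.14). With the variance prior following the mean, the calls were 1101 in KHOS, 2782 in U-2OS and 863 for the line difference, and 74 rather than 3 in the joint vector comparison. The 75th percentile filter called 553 for the line difference and 16 jointly, no filter 19, the probe set mean 12, quantile normalization 11, and the miR-null and control arrays 13.

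Signs turned in several results, not all of them near 0. For CGAS, quantile normalization gave -0.12 between lines, 0.13 in U-2OS and -0.024 for the line difference, the control arrays -0.0055 between lines, and the probe set mean 0.0058 in U-2OS. For STING1, the probe set mean gave 0.13 between lines and 0.0069 in KHOS, and the control arrays 0.25 between lines. For MAVS, quantile normalization gave -0.29 for the line difference and 5.87e-04 for miR-1. For IFI16, the probe set mean gave -0.080 in U-2OS. Leaving out 1 array gave ranges across 0 between lines for STING1 (-0.26 to 0.29), in KHOS for STING1 (-0.26 to 0.13) and in the line difference for MAVS (-0.11 to 0.16). It did so jointly with a vector for IFIH1 (-1.74 to 2.78), RIGI (-1.03 to 1.66), CGAS (-0.093 to 0.20) and STING1 (-0.092 to 0.44). IFIH1 (-1.74) and RIGI (-1.03) were then called lower without the KHOS control, when the U-2OS change alone remains. For miR-1 it did so for IFIH1 (-1.57 to 0.95), RIGI (-1.25 to 0.35), DHX58 (-0.17 to 0.14), CGAS (-0.12 to 0.26), STING1 (-0.37 to 0.68), IFI16 (-0.61 to 0.076) and MAVS (-0.23 to 0.13).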

Other observations

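The opposite change of IFIH1 and RIGI was looked for over all genes, after their values had been seen. Of 446 genes that rose with a vector in KHOS and 1513 that fell in U-2OS, 29 were in both sets, IFIH1 and RIGI among them. That is 6.5% of the first set and 1.92% of the second, where 11.7% of all genes tested fell in U-2OS and 3.44% rose in KHOS. Genes called in both lines also included 81 that rose in both, 35 that fell in both and 1 that fell in KHOS and rose in U-2OS. The 81 were 18.2% of the genes that rose in KHOS, where 3.23% of all genes tested rose in U-2OS. The 35 were 47.3% of the genes that fell in KHOS, where 11.7% of all genes tested fell in U-2OS. The 1 was 1.35% of the genes that fell in KHOS. In order of the line difference the 29 began with IFIH1, IFI27, an interferon-induced protein (3.81), DDX60L, a relative of the helicase DDX60 (3.58), GCA, a calcium-binding protein (3.08), IFIT1 (3.06) and the basic helix-loop-helix factor BHLHE41 (3.0). IRF9, the DNA-binding subunit of the interferon-activated factor ISGF3, was also among them and was chosen for mention after its values were seen. It was read at 10.06, 11.07 and 11.08 in KHOS and at 8.68, 8.06 and 7.80 in U-2OS. After quantile normalization 6 of the 29 were still in both sets, IFIH1 but not RIGI among them, and without the KHOS miR-null array 2 were, without the KHOS miR-1 array 4. With the mean of a gene's probe sets 17 of the 29 were, neither helicase among them.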
